A study of Mus musculus with 11 samples.

Results

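The 8 genes described here encode proteins by which bone endothelium is recognised at its surface: Pecam1 (CD31), Emcn (endomucin), Cd34, Mcam (CD146), Ly6a (SCA-1), Ly6c1 (LY6C), Cd93 and Clec14a. They were taken by symbol from the 27179 rows of the count table, and all 8 were found and passed the filter on low counts, among 11947 genes tested. RNA had been sequenced from CD31hi EMCNhi endothelial cells (ECs) sorted from the bone marrow of BALB/c mice. Met libraries (n = 3) came from marrow infiltrated by 4T1.2 mammary tumour cells that carry a red fluorescent protein. Non-met libraries (n = 6) came from adjacent tumour-free marrow of burdened bones, and control libraries (n = 2) from healthy mice matched for age. 4T1.2 is a BALB/c mammary carcinoma line that spreads from the mammary fat pad to bone. No engineered allele is named for any of the mice, and no treatment other than the tumour cells is named for the burdened groups.

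Each library was made from a pool of up to 4 mice. Non-met 1 and non-met 5 came from burdened pool 1. Met 1 shared pool 2 with non-met 2 and 6, met 2 shared pool 3 with non-met 3, and met 3 shared pool 4 with non-met 4. Libraries of 1 pool are not independent animals, although the tests across libraries treat them as separate samples, and 2 control libraries allow only wide limits on any difference from healthy bone. The area of the marrow was divided by tumour fluorescence under dissection, so met and non-met differ by region of the bone as well as by tumour content, and these cannot be told apart.

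Type H vessels are capillaries near the growth plate and the endosteal surface of bone, where vessel growth and bone formation are coupled, and they are defined by high CD31 together with high endomucin. PECAM1 is a junctional immunoglobulin-family adhesion receptor, and endomucin is a sialomucin that holds leukocytes off the endothelial surface. CD34 is another sialomucin, MCAM is an adhesion receptor for laminin, the LY6 proteins are small lipid-anchored surface proteins of endothelium and blood cells, and CD93 and CLEC14A are C-type lectin-like receptors that bind the matrix protein multimerin-2 during vessel growth. The sort gate selected on CD31 and endomucin protein, so the RNA of Pecam1 and Emcn was read in cells already chosen for both products. In bulk RNA of this kind, fewer cells of a type and less RNA per cell cannot be told apart.

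Total counts were 5029771 and 19539761 in the controls, 733342 to 7683451 in the non-met and 2547520 to 8771860 in the met libraries. The 20 general endothelial markers summed to between 12412 and 23504 counts scaled to library size (CPM, per 1e+06 counts) in every library, and none of them was at 0 in a whole group. Markers of sinusoidal endothelium, which carries less of both sort markers at its surface, were also abundant: the 10 genes summed to 9902 to 11736 CPM in controls, 7105 to 11963 in non-met and 6640 to 8145 in met, against 214 to 988 CPM for the 10 arterial markers over all libraries. Endothelial markers were thus present throughout, together with sinusoidal transcripts. The libraries were divided into 2 working sets with regard to traces of the epithelial keratins Krt8, Krt18 and Krt19. The 2 controls with non-met 1 and 2 had 0.819 to 4.43 CPM of these 3 genes, and the other 7 libraries had 9.69 to 82.0 CPM, so that all met libraries lay in the second set and all controls in the first. The step between the sets, from 4.43 to 9.69 CPM, was no wider in proportion than that from 1.79 (control 2) to 4.43 CPM within the first. The keratins alone thus do not fix the division, and what separates the sets, if anything, is not stated. Met against non-met is also given within the second set and non-met against control within the first.

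Sequences of 3 members are shown because their genes differed in how they behaved: Cd34 and Mcam were the members called most often by voomLmFit, limma-trend, the edgeR quasi-likelihood test and DESeq2 over the 3 comparisons, and Emcn encodes the second sort marker. Each line gives the 250 bases before the start site used in the RefSeq promoter table, 5′ to 3′ on the strand of the gene, from RefSeq (GRCm38.p6): Cd34 at chr1:194938571-194938820 (+), Mcam at chr9:44134408-44134657 (+) and Emcn at chr3:137340828-137341077 (+). The last bases of the Emcn window lie inside the gene as annotated, which begins at 137341062. Capitals mark GGAA or its reverse complement TTCC, the core letters bound by ETS factors, a family with members in all endothelium.
Cd34: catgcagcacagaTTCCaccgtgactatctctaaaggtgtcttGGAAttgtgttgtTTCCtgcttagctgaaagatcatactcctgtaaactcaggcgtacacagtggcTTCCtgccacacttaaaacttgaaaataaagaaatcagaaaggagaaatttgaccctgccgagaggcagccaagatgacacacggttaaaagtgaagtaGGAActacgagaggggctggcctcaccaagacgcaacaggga
Mcam: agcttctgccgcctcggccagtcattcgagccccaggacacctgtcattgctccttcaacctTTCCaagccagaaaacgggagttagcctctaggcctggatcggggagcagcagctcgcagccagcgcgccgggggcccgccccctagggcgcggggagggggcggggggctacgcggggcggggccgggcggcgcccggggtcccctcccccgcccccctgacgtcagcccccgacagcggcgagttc
Emcn: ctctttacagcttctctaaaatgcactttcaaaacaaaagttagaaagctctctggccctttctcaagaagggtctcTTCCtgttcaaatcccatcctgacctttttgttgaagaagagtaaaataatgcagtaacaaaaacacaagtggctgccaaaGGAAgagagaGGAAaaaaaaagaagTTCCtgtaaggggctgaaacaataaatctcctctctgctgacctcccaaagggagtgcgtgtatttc
The letters occurred 5 times before Cd34, 4 times before Emcn and 1 time before Mcam, counted on both strands. They are common: 93.4% of 32851 promoters of this length held at least 1 match, with a median of 3. At least 5 matches, as before Cd34, were found in 18% of them, and 1 or fewer, as before Mcam, in 23.2%. The GATA letters GATAAG, held by 6.55% of all promoters, and the STAT letters TTCNNNGAA, held by 7.02%, were not found in these 3 windows on either strand. A promoter was found in the table for 5 of the 8 members.

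Across genes the levels were compared as CPM per kilobase of gene length (RPKM). Pecam1 was the most abundant member with a median of 585 RPKM over the 11 libraries (range 294 to 958), followed by Emcn at 547 (240 to 932). Ly6a, the marker of arteriolar endothelium and stem cells, had a median of 386 RPKM (121 to 682). All 3 stood at or above percentile 96.6 of the tested genes in every library.

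Mcam (median 256 RPKM, range 46.3 to 549), Cd34 (243, range 71.0 to 601) and Cd93 (176, range 52.5 to 259) came next. Ly6c1 (117, range 102 to 384) and Clec14a (78.6, range 0.234 to 183) were lowest. Neighbours in this order were often not separated: Pecam1 exceeded Emcn in 4 of 11 libraries, Mcam exceeded Cd34 in 5 of 11 and Cd93 exceeded Ly6c1 in 5 of 11. By contrast Ly6a exceeded Mcam in 11 of 11 libraries, and Ly6c1 exceeded Clec14a in 10 of 11.

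**Figure D1:**
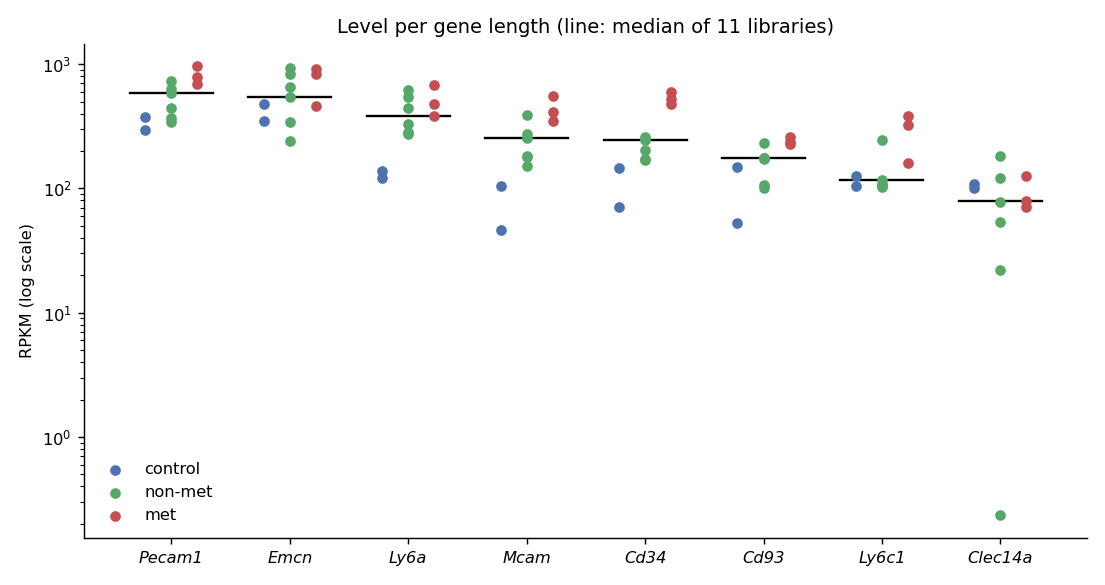
RPKM of each member in every library on a log axis, coloured by group, with the median of 11 libraries as a line. Pecam1 and Emcn overlap at the top (medians 585 and 547), and a single non-met library places Clec14a at 0.234 RPKM.

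Tumour-infiltrated marrow was first compared with adjacent marrow, which asks how the endothelium differs between areas of the same bones. Cd34 and Pecam1 RNA were higher in met, and Mcam and Cd93 also passed the test, while Emcn, Ly6a, Ly6c1 and Clec14a did not. With voomLmFit, the weighted linear model of edgeR that the study used, 4 of 8 members were called higher at an adjusted P below 0.05, against 0.285% of all tested genes. None was called lower (0.142% of all genes). Limma-trend, a fit without precision or sample weights, called 0 members higher and 0% of all genes. At an unadjusted P below 0.05 it had 4 members, Pecam1, Cd34, Mcam and Cd93, beside 4.7% of all genes in either direction. The edgeR quasi-likelihood test called 0 members (0.142% of all genes) and had 3 at that level (8.38%).

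Cd34, the sialomucin, separated the groups most clearly. It stood at 1244, 1363 and 1576 CPM in the 3 met libraries, at a lowest of 442, a median of 587 and a highest of 679 CPM in the 6 non-met libraries, and at 383 and 186 CPM in the controls. The 3 groups did not overlap at all, with controls lowest and met highest. Met exceeded non-met by 1.31 ± 0.20 in log2 terms (fitted value and SE, voomLmFit, adjusted P = 0.000734).

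Cd34 was the only member without overlap between met and non-met, where 1.54% of all genes were higher without overlap. Its exact two-sided permutation P was 0.0119, the smallest that 84 splits can give, and 1 after adjustment over all genes. DESeq2 also called Cd34 (adjusted P = 0.0126) and no other member, with 2.73% of all genes, whereas limma-trend (adjusted P = 0.435) and the edgeR quasi-likelihood test (adjusted P = 0.375) did not. Cd34 lies at chr1:194938821-194961292, and a predicted gene, Gm16897, is annotated over part of it.

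Pecam1 (chr11:106654213-106715281) stood at 2297, 2596 and 3165 CPM in met and at 1131, 1703 and 2428 CPM (lowest, median, highest) in non-met, with 1247 and 972 CPM in the controls. The lowest met library fell below the highest non-met library, and both controls were below every met library. The fitted log2 difference of Pecam1 was 0.89 ± 0.13 (SE), with an adjusted P of 0.000451 in voomLmFit. In limma-trend the difference was 0.69 (95% interval 0.24 to 1.15, adjusted P = 0.91).

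Emcn (chr3:137341062-137431069), the other gene of the sort gate, stood at 674, 1215 and 1327 CPM in met, at 351, 875 and 1362 CPM in non-met and at 695 and 509.6 CPM in the controls. The met and non-met libraries overlapped almost completely. Its fitted log2 difference was 0.49 ± 0.20 (SE), with an adjusted P of 0.593 in voomLmFit, and the limma-trend interval ran from -0.36 to 1.16. A predicted gene, Gm38650, is annotated over part of Emcn, and whether reads were counted by strand was not given in the sources used here.

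Mcam (chr9:44134658-44142727), the laminin receptor, stood at 1179.7, 1011 and 1589 CPM in met libraries 1, 2 and 3. Non-met libraries ranged from 435 through a median of 636 to 1132 CPM, and the controls had 303 and 134 CPM. The non-met library 3 lay above the lowest met library, and the controls lay apart at the bottom. For Mcam the fitted log2 difference was 1.10 ± 0.25 (SE), and voomLmFit gave an adjusted P of 0.0435.

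Ly6a (chr15:74994877-74998031) stood at 395, 319 and 565 CPM in met and at 227, 321 and 509 CPM in non-met (lowest, median, highest). The controls, at 100.02 and 114 CPM, were below every burdened library. Met and non-met differed by a fitted 0.46 ± 0.35 (SE) on the log2 scale, which did not pass (adjusted P = 0.79, voomLmFit). The predicted gene Gm28068 is annotated over part of Ly6a.

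Ly6c1 (chr15:75044018-75048920) stood at 633, 266 and 531 CPM in met, at 168, 176 and 404 CPM in non-met and at 209 and 172 CPM in the controls. The non-met libraries lay at the level of the controls in 5 of 6 cases, and non-met 3 lay among the met libraries. The fitted log2 difference, 1.05 ± 0.46 (SE), did not pass (adjusted P = 0.637, voomLmFit).

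Cd93 (chr2:148436651-148443535) stood at 1719, 1573 and 1512 CPM in met, the narrowest spread of any member in that group. Non-met libraries ranged from 666 through a median of 1155 to 1544 CPM, and the controls differed widely at 993 and 348 CPM. Only non-met 4 reached the met range. The fitted log2 difference was 0.60 ± 0.14 (SE), and its adjusted P of 0.0498 in voomLmFit was just inside the threshold.

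Clec14a (chr12:58264720-58269258), which binds the same ligand as CD93, stood at 319, 576 and 357 CPM in met and at 491 and 453 CPM in the controls. In non-met it spanned 1.06 to 829 CPM with a median of 297. The lowest was non-met 5, with 2 reads, and the highest was non-met 4. Non-met 1, of the same mouse pool as non-met 5, held 1340 reads (241.5 CPM). With such a spread the fitted log2 difference of 0.98 ± 0.70 (SE) did not pass (adjusted P = 0.778, voomLmFit), and without non-met 5 it was 0.43.

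**Figure D2:**
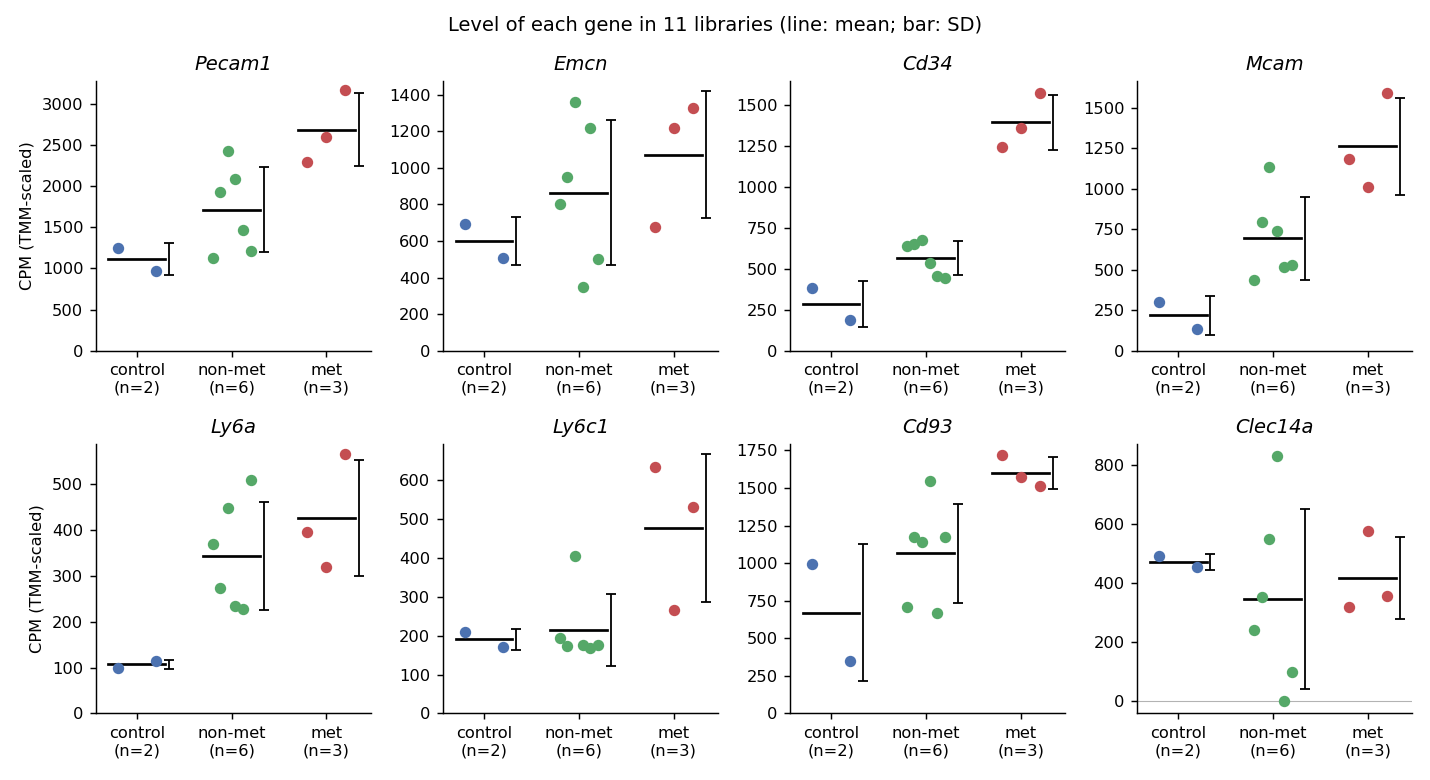
CPM of each member in every library, with the mean as a line and the SD as a bar for control (n = 2), non-met (n = 6) and met (n = 3). Cd34 is the only member whose met libraries (1244 to 1576 CPM) all lie above its non-met libraries (442 to 679 CPM).

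The weights of voomLmFit bear on these calls. For Pecam1, met 3 held 99.8% of the weight of the met group and non-met 2 held 65.9% of that of the non-met group, and control 1, which bears on the comparisons with healthy bone, held 99.9% of that of the controls. For Cd93 met 3 and control 1 held 87.9% and 87.4%, for Cd34 83.2% and 72.2%, and for Mcam 79.4% and 66.6%. Without met 3, Cd34 (adjusted P = 0.0269) and Pecam1 (adjusted P = 0.0287) passed in voomLmFit and Mcam (0.437) and Cd93 (0.173) did not. The fitted log2 differences were then 1.11 for Cd34, 0.59 for Pecam1, 0.62 for Mcam and 0.66 for Cd93, the last no smaller than with all libraries. Of the members that had not passed, Ly6a then had a fitted difference of 0.06 and Emcn one of 0.20.

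Pairs of met and non-met libraries from the same mouse pool compare areas of the same animals. Across genes their deviations from the group means had a Spearman rho of -0.02 to 0.02. For met and non-met libraries of different pools it was -0.05 to 0.07, so no shared signal of a pool was seen. Cd34 was higher in met in 3 of 3 pools, by 1.21, 1.00 and 1.56 on the log2 scale in pools 2, 3 and 4. Pecam1 was also higher in 3 of 3 pools, by 0.58, 0.10 and 0.60. Non-met libraries of 1 pool differed from each other by 0.49 and 0.56 in Cd34 and by 0.38 and 0.67 in Pecam1, but each such pair held 1 library of either library set. In pool 2 the met library exceeded non-met 6, of its own set, by 1.49 in Cd34 and 0.92 in Pecam1, and non-met 2, of the other set, by 0.93 and 0.25.

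The other members did not keep 1 direction across pools. Emcn differed by -0.03, -0.16 and 1.92, Mcam by 0.86, -0.16 and 1.10, and Ly6a by 0.08, -0.49 and 1.27. Ly6c1 differed by 1.85, -0.61 and 1.60, Cd93 by 0.55, 0.47 and -0.03, and Clec14a by 0.76, 0.07 and -1.21. Pool 4 supplied the highest value for Pecam1, Emcn, Cd34, Mcam and Ly6a, and pool 3 the lowest for all members except Cd93 and Clec14a. With the mouse pool as a fixed block, 0 of 8 members passed in voomLmFit and 0 in limma-trend (Cd34 log2 fold change 1.09, adjusted P = 1.00, and 1.26, adjusted P = 0.517). In these 2 blocked fits Pecam1 stood at 0.22 and 0.45, Mcam at 0.30 and 0.63, and Cd93 at 0.43 and 0.36, all lower than without the block.

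**Figure D3:**
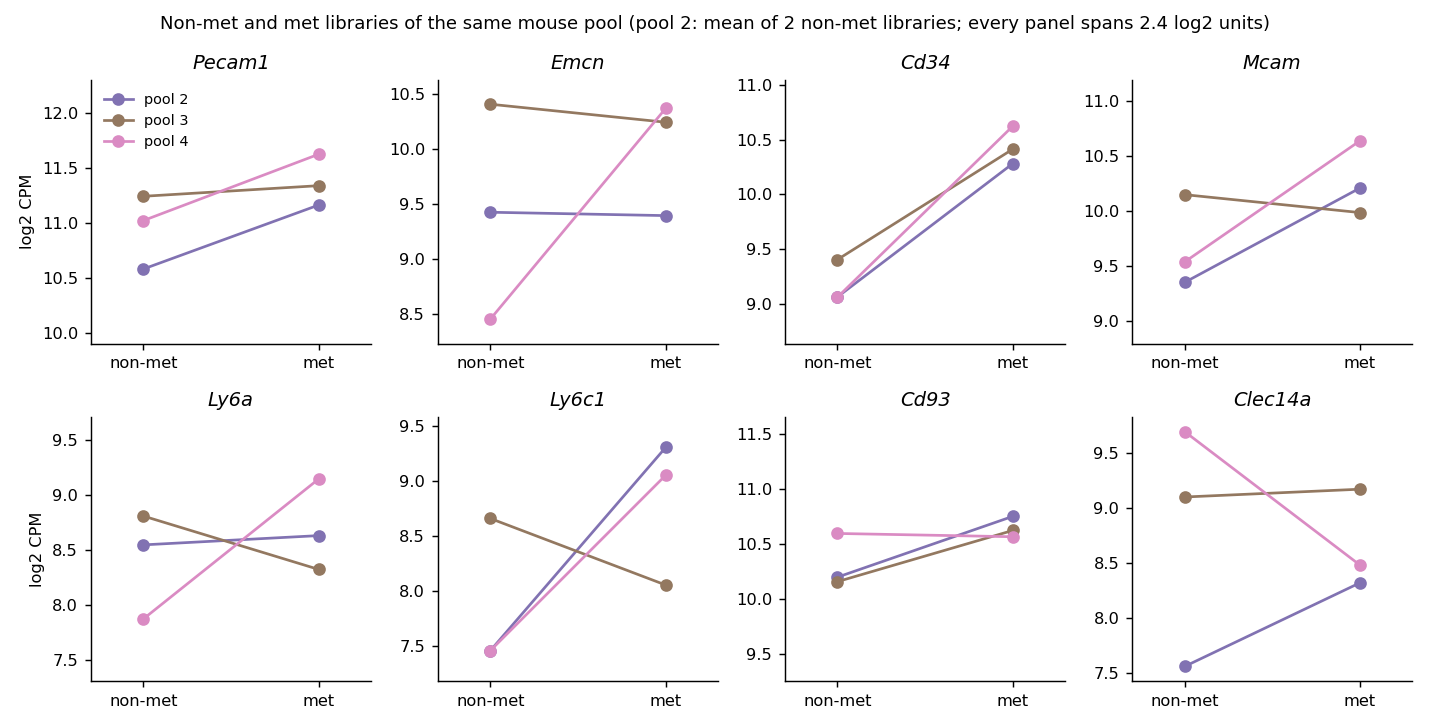
Log2 CPM of each member in the non-met and met libraries of burdened pools 2, 3 and 4, joined by pool, with the 2 non-met libraries of pool 2 averaged. Cd34 is higher in met in all 3 pools by 1.00 to 1.56, while Ly6a and Ly6c1 are lower in met in pool 3.

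Within the second library set alone, which held 3 met and 4 non-met libraries, the difference of mean log2 CPM was 1.42 for Cd34, 0.84 for Mcam, 0.62 for Pecam1 and 0.56 for Cd93. That Cd34 had no overlap there follows from its separation over all libraries. None of the 8 passed in voomLmFit there, the smallest adjusted P being that of Cd34 (0.151). Over all libraries the 8 members had a median unweighted difference of 0.80 between met and non-met, and the median over all tested genes was 0.26. The latter depended on the fit, at 0.08 in voomLmFit, -0.10 in the quasi-likelihood test and -0.26 in DESeq2.

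Met was next compared with healthy bone. In all, 6 of 8 members were called higher by voomLmFit against 0.686% of all genes: Pecam1, Emcn, Cd34, Mcam, Ly6a and Cd93. None was lower (0.511% of all genes). Limma-trend called 2 higher, Cd34 and Mcam, against 0.0586% of all genes. DESeq2 called the same 2 (1.91% of all genes), and the quasi-likelihood test called Mcam (0.0837%). The same met libraries enter both comparisons, so the 2 are not independent.

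Mcam differed most, by 2.65 ± 0.54 (SE) on the log2 scale (adjusted P = 0.00934, voomLmFit). It passed limma-trend (2.62, 95% interval 1.63 to 3.60, adjusted P = 0.0142), the edgeR quasi-likelihood test (adjusted P = 0.0358) and DESeq2 (adjusted P = 6.1e-05). Cd34 differed by 2.29 ± 0.28 (SE; adjusted P = 1.22e-05, voomLmFit) and passed limma-trend (2.38, 95% interval 1.46 to 3.29, adjusted P = 0.0158) and DESeq2 (adjusted P = 1.31e-05) but not the quasi-likelihood test (adjusted P = 0.103).

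Ly6a had a fitted log2 difference of 2.11 ± 0.51 (SE), with an adjusted P of 0.0405 in voomLmFit, and for Pecam1 it was 1.34 (adjusted P = 1.11e-26, voomLmFit). The SE of Pecam1, 0.015, stood beside log2 CPM values of 10.29 and 9.92 in the 2 controls themselves. The limma-trend interval for Pecam1, 0.68 to 1.86, had an adjusted P of 0.0983. Cd93 (0.81, adjusted P = 0.0116) and Emcn (0.91, adjusted P = 1.72e-05) passed in voomLmFit and not in limma-trend (adjusted P = 0.374 and 1). The unweighted log2 difference of Cd93 was 1.44, and without control 1 its fitted value was 2.17 and that of Emcn 1.38.

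Ly6c1 and Clec14a did not pass. The fitted log2 difference of Ly6c1 was 1.13 ± 0.39 (SE), with an adjusted P of 0.145, and that of Clec14a -0.23 ± 0.34 (adjusted P = 0.814, voomLmFit). For Clec14a the limma-trend interval, -3.26 to 2.81, was too wide to exclude a large change in either direction. In 6 of 8 members the met libraries were all above the controls, where 8.44% of all genes showed this: Pecam1, Cd34, Mcam, Ly6a, Ly6c1 and Cd93.

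With 3 against 2 libraries an exact permutation test cannot go below P = 0.1. The count of 6 rested on control 1: without it voomLmFit called 0 of 8, in a fit where the lone control is assumed to vary like the other groups. The fitted log2 differences were not smaller there for Pecam1 (1.73 ± 0.90, SE), Cd34 (3.11 ± 0.79) and Mcam (3.53 ± 1.46), and Ly6a stood at 2.04 ± 1.00, all with larger SEs. Without met 3 it called 3 (Pecam1, Cd34 and Mcam). No library set held both groups, so a value within sets cannot be had. With a term for the sets 0 of 8 passed (Cd34 2.48, adjusted P = 0.0962, and Mcam 2.18, adjusted P = 0.319, voomLmFit). The median unweighted difference of the members was 1.36, and that of all tested genes -0.35 (-0.09 in voomLmFit, 0.02 in the quasi-likelihood test and 0 in DESeq2).

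Adjacent marrow was last compared with healthy bone. Cd34, Mcam and Ly6a were above both controls in all 6 non-met libraries. Ly6c1 lay at the control level in all of them but non-met 3 (404 CPM). No member was called higher by voomLmFit (0.184% of all genes) or lower (0.452%), and limma-trend called 0 higher (0.0502%). At an unadjusted P below 0.05 voomLmFit had 5 members (17% of all genes in either direction) and limma-trend 5 (4.46%). The quasi-likelihood test called 0 members (0.117% of all genes) and had 3 at that level (4.31%). DESeq2 called Mcam (adjusted P = 0.0028) and Ly6a (adjusted P = 0.035), with 2.23% of all genes.

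In limma-trend at an unadjusted level, the 95% interval excluded 0 for Pecam1 (0.05 to 1.11), Cd34 (0.25 to 1.88), Mcam (0.82 to 2.59), Ly6a (0.37 to 2.85) and Cd93 (0.07 to 1.53). The log2 fold changes in voomLmFit were 1.65 ± 0.54 (SE; adjusted P = 0.124) for Ly6a, 1.56 ± 0.59 (adjusted P = 0.183) for Mcam and 0.99 ± 0.34 (adjusted P = 0.148) for Cd34. Complete separation upwards, as in these 3 genes, was found in 1.26% of all genes. Their exact permutation P was 0.0357, the smallest that 28 splits can give, and 0.835 after adjustment over all genes.

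Within the first library set, non-met 1 and 2 exceeded the controls by 1.57 for Ly6a, 1.54 for Mcam and 1.27 for Cd34 on the log2 scale. That none of the 3 overlapped there follows from their separation over all libraries. Ly6c1 differed by -0.04 there. Emcn differed by 0.55 and Clec14a by -0.69. Over all libraries the median unweighted difference of the members was 0.69, beside -0.79 over all tested genes, and in voomLmFit the medians were 0.44 and -0.33. The median over all tested genes changed sign in the quasi-likelihood test (0.14) and in DESeq2 (0.22), so no general direction can be read from it.

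**Figure D4:**
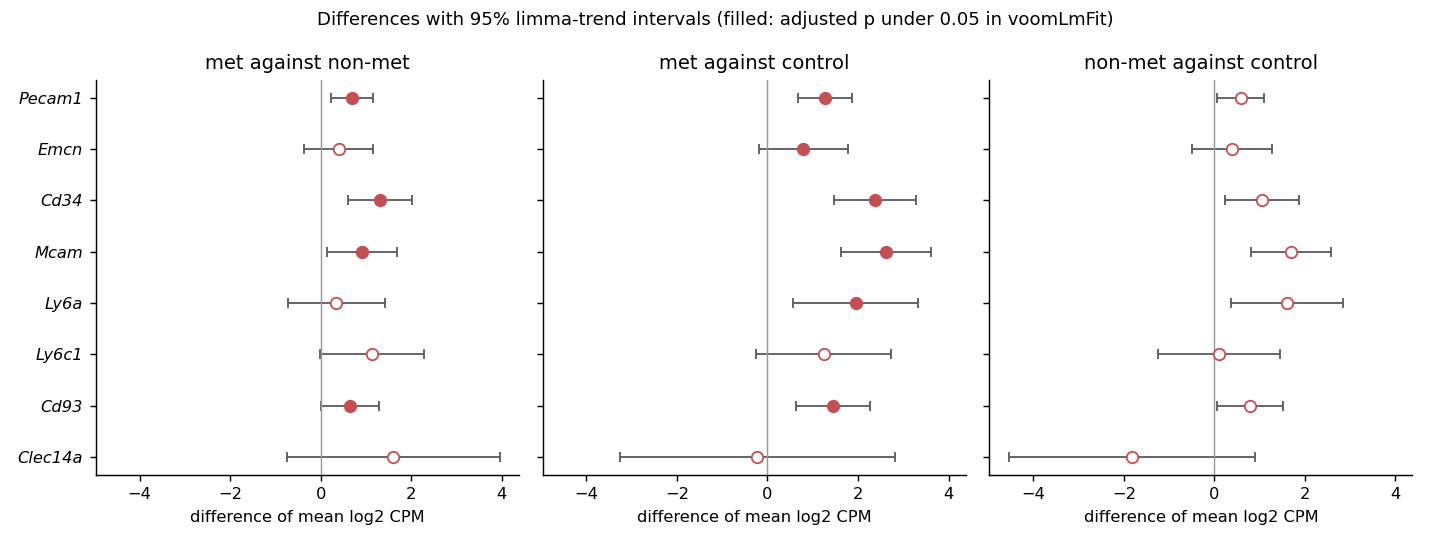
Difference of mean log2 CPM with its 95% limma-trend interval for each member in the 3 comparisons, filled where voomLmFit gave an adjusted P below 0.05. The points of 7 members lie to the right of 0 in all 3 panels, those of Clec14a do not, and the intervals of Clec14a are the widest.

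The group means of the members came in different orders. Cd34 had means of 285, 567 and 1394 CPM in control, non-met and met, and Mcam had 218, 692 and 1259.9 CPM in the same order. Ly6a had means of 107, 343 and 426 CPM, with the wider gap between healthy and burdened mice. Ly6c1 had means of 190.2, 215 and 477 CPM, with the wider gap between met and both other groups. Whether the gaps differ between members was not tested.

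The share of all counts that fell on the 8 members together was 0.789% to 1.09% in met, 0.446% to 0.688% in non-met and 0.336% to 0.474% in the controls. The met libraries had the largest shares without overlap, and Pecam1 contributed most reads in every group.

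Since the gate used both CD31 and endomucin, the 2 RNAs were set against each other within each library. The log2 ratio of Emcn to Pecam1, from CPM, was -0.84 and -0.93 in the controls. It was -0.50, -1.02, -0.83, -2.57, -0.27 and -1.28 in non-met 1 to 6, and -1.77, -1.09 and -1.25 in met 1 to 3. The controls lay close together and inside the range of the non-met libraries, and non-met 4, the shallowest library, was lowest.

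The mean ratio was -1.37 ± 0.35 (SD, n = 3) in met, -1.08 ± 0.81 (SD, n = 6) in non-met and -0.89 ± 0.06 (SD, n = 2) in controls. The exact two-sided permutation P was 0.595 for met against non-met, 0.2 for met against control and 0.714 for non-met against control. With 10 and 28 splits the last 2 cannot go below 0.1 and 0.0357. Leaving out non-met 4 changed the difference between met and non-met from -0.29 to -0.59 (exact permutation P = 0.107).

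**Figure D5:**
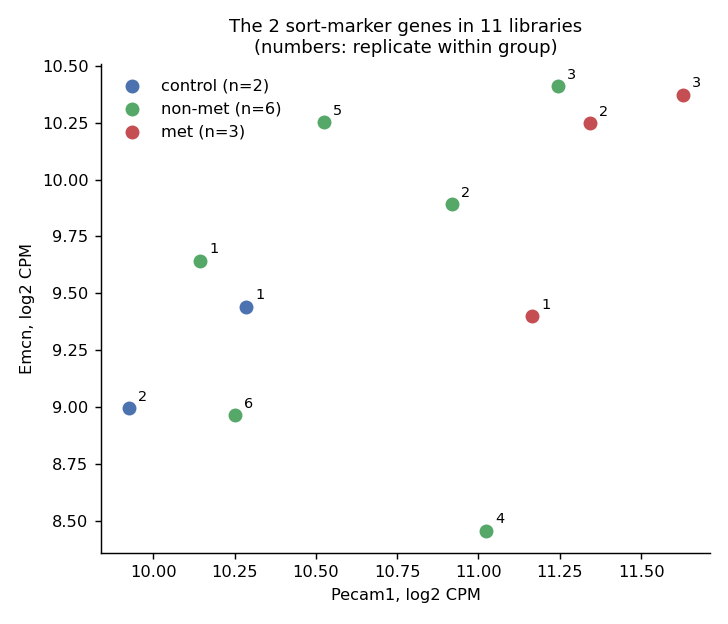
Log2 CPM of Emcn against that of Pecam1 in the 11 libraries, coloured by group and numbered by replicate. Non-met 4 has Pecam1 at 11.02 with the lowest Emcn of any library (8.46), and the 3 met libraries hold 3 of the 4 highest Pecam1 values.

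Pecam1 and Emcn had a Pearson r of 0.49 over the 11 libraries, which share pools and are not independent. The 28 pairs of members ranged from -0.27 (Emcn and Clec14a) to 0.92 (Pecam1 and Mcam), with a median of 0.54. Mcam and Cd34 had an r of 0.91, Mcam and Cd93 0.86, and Pecam1 and Cd34 0.86. Clec14a had no r above 0.32 with another member. These values describe how the libraries vary, group differences included.

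Among 4545 tested genes with a mean of at least 50 CPM, those most like Pecam1 over the 11 libraries were Plpp1 (r = 0.93), S1pr1 (0.92), Mcam (0.92), Col4a2 (0.91) and Eln (0.91). S1pr1 is a sphingosine-1-phosphate receptor of endothelium, and Col4a2 is a type IV collagen chain of its basement membrane. The genes most like Emcn were Adgra2 (0.89), Mmp14 (0.88), Rpl36al (0.88), Fam133b (0.88) and Birc3 (0.87). The 2 lists shared no gene, although the sort used both proteins.

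Ly6c1 has a close relative, Ly6c2, that marks monocytes, and reads can be shared between them. Their coding sequences (393 bases each, GENCODE M21) differed at 9 bases, an identity of 97.7%, with a longest run of 188 identical bases. The first 90 coding bases, which held 6 of the differences, are shown with the differing bases in capitals.
Ly6c1: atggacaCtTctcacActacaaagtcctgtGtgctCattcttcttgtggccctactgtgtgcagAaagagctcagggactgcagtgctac
Ly6c2: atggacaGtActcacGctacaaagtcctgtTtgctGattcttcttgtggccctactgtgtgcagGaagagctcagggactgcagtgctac
The next most similar pair, Ly6a and Ly6i, had 86.3% identity, and Ly6a and Ly6c1 had 82.6%. A read that lies in an identical stretch cannot be assigned to either of the Ly6c genes by its sequence, so their counts are uncertain.

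Reads assigned to Ly6c2 were 1.07% (exact 95% binomial interval 0.572% to 1.83%) of both genes in non-met 2 and 28.2% (22.9% to 33.9%) in non-met 6. In the met libraries they were 6.93%, 5.91% and 4.24%, and in the controls 3.87% and 22.1%. The sum of both genes was 680.1, 282 and 555 CPM in met, 176 to 419 CPM in non-met, and 217 and 221 CPM in the controls. Met 1 and met 3 were thus highest also with the 2 genes added, and met 2 lay among the non-met libraries. Intervals cover counting error only. Ly6i, near Ly6a on the same chromosome, did not exceed 6.66 CPM in any library.

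Ligands, partners and relatives of the members were read from a list of 18 genes, of which 17 were tested. In met against non-met 3 were called higher by voomLmFit (0.285% of all genes) and 0 lower (0.142%), and limma-trend called none. The 3 were Igfbp7 (log2 fold change 0.79, adjusted P = 0.000378), a matrix protein that binds CD93, Eng (0.77, adjusted P = 0.0118), the TGF-beta co-receptor endoglin, and Cdh5 (0.56, adjusted P = 0.0158), the cadherin of endothelial junctions. Their unweighted differences were 0.35, 0.41 and 0.50.

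In met against control Podxl, a sialomucin of the CD34 family, had a log2 fold change of 1.37 (adjusted P = 0.00585, voomLmFit), Igfbp7 one of 0.94 (adjusted P = 3.45e-13) and Cdh5 one of 0.12 (adjusted P = 0.00418). The unweighted difference was 1.46 for Podxl, 0.62 for Igfbp7 and 0.61 for Cdh5. For Kdr, the main VEGF receptor, the fitted value was -0.48 (adjusted P = 2.41e-05, voomLmFit) but the unweighted difference was 0.08, in the opposite direction. In non-met against control Eng had a fitted value of -0.80 (adjusted P = 0.0058, voomLmFit) and an unweighted difference of -0.28. Limma-trend called none of the 17 in either of these comparisons.

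Multimerin-2 (Mmrn2), the shared ligand of CD93 and CLEC14A, had log2 fold changes of 0.69 (adjusted P = 0.482, met against non-met), 0.66 (adjusted P = 0.0606, met against control) and -0.03 (adjusted P = 0.923, non-met against control) in voomLmFit, beside unweighted differences of 0.13, 0.20 and 0.06. Lama4, the laminin chain bound by MCAM, had 1.23 (adjusted P = 0.502), 0.74 (adjusted P = 0.304) and -0.48 (adjusted P = 0.565). Neither ligand passed in any of the 3.

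Of the 20 general endothelial markers, which share Cdh5, Kdr, Eng, Icam2, Esam, Mmrn2 and Podxl with the partner list, voomLmFit called 4 higher and 0 lower in met against non-met, beside 0.285% and 0.142% of all genes. It called 4 higher and 1 lower in met against control (0.686% and 0.511%) and 0 higher and 1 lower in non-met against control (0.184% and 0.452%), and these shares also stand beside the counts of the next 3 lists. Their median log2 fold changes were 0.48, 0.50 and -0.10 in voomLmFit and 0.34, 0.45 and 0.12 in limma-trend, so the last turned with the fit. The 6 genes linked to type H vessels, growth factors and Hif1a, gave no call in met against non-met or met against control, and 1 lower in non-met against control. The 9 tested arterial markers gave no call in any comparison. Among the 9 tested sinusoidal markers 0 were called in met against non-met, 1 higher and 2 lower in met against control, and 1 in each direction in non-met against control. Limma-trend called no gene of these 4 lists in any comparison.

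Several members are also made by other marrow cells: Cd34 and Ly6a by blood stem and progenitor cells, Ly6c1 and Cd93 by myeloid cells, Pecam1 by platelets and leukocytes, and Mcam by pericytes. Ptprc (CD45), which defines blood cells and was excluded in the sort, was at 0 reads in 9 of 11 libraries and had 255 reads in control 1 and 205 in met 2. The 8 markers of stem and progenitor cells summed to 131 to 133 CPM in controls, 16.4 to 222 in non-met and 106 to 370 in met. Kit was the most abundant of them in 10 of 11 libraries, and Ptprc in met 2. Their part in the result for Cd34 was not tested.

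Markers of monocytes and macrophages (8 genes) summed to 79.5 to 100.3 CPM in controls, 174 to 653 in non-met and 47.1 to 289 in met, and Csf1r was at 0 reads in 8 of 11 libraries. Granulocyte markers (8 genes) summed to 77.8 to 359 CPM in controls, 397 to 4797 in non-met and 35.4 to 204 in met, so that the non-met libraries were highest without overlap. S100a8 was at 0 reads in 2 of the 3 met libraries. Limma-trend called 1 of the 8 granulocyte genes lower in met against non-met (0.0167% of all genes), and voomLmFit called none. B-lineage markers (6 genes) reached at most 107 CPM in any library, with Cd79a at 0 in 9 of 11.

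Megakaryocyte and platelet markers (6 genes) summed to 42.7 to 99.99 CPM in met, 0 to 31.3 in controls and 0 to 57.8 in non-met. Itga2b had reads in 3 of 3 met libraries (30.0 to 99.99 CPM) and in 1 of the 8 others. Pf4 was highest instead in non-met 6 (57.8 CPM) and non-met 1 (51.4), against 0, 12.5 and 22.4 CPM in met 1 to 3. Ppbp had 31.3 CPM in control 2 and no reads elsewhere. The sums of the list were highest in met with some overlap, beside 2297 CPM or more of Pecam1 there. Their part in the result was not tested. In met against control voomLmFit called 1 of the 2 tested genes of the list higher (0.686% of all genes). Red cell markers (5 genes in the table) reached at most 125 CPM in any library.

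Mural and stromal markers (10 genes) summed to 6243 to 11901 CPM in controls, 2510 to 4171 in non-met and 1562 to 4807 in met. Cxcl12 led this list with 3224 and 8720 CPM in the controls, and Pdgfrb had 41.8 to 318 CPM in 10 libraries and a single read in non-met 4. Acta2, Cspg4 and Myh11 were highest in met 1, at 320.2, 174 and 132 CPM. Pdgfrb (318 CPM), Notch3 (231), Kcnj8 (784) and Rgs5 (142) were highest in non-met libraries, against 116, 199, 446 and 141 CPM in met 1. Abcc9, Lepr and Cxcl12 were highest in a control. Met 1 was thus not highest for the list as a whole, and the part of mural cells in the result for Mcam was not tested. Mammary epithelial markers (10 genes) summed to 11.4 to 77.7 CPM in met, 29.2 to 648 in non-met and 0.929 to 45.6 in controls. Lcn2, which the granulocyte list also holds, gave 509 CPM of the highest of these sums, in non-met 6.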

How the data were processed

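RNA from sorted ECs was amplified with a low-input full-length kit (SMART-Seq). Alignment by the authors used Rsubread and the mm10 genome, and featureCounts gave the deposited table of raw read counts, 1 row per Entrez gene. The table also gives a gene length, used here for RPKM. The depth of each library limits its precision. No column of the table was left unmapped (0 columns not used). Symbols came from RefSeq GRCm38.p6 for 25275 rows. The 1904 rows without a symbol, 1788 predicted genes and 35 ribosomal RNA rows were left out of the tests and library sizes.

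Counts were filtered with filterByExpr (minimum count 10, minimum total 15) and scaled by TMM. All 11 libraries entered 1 model of 3 groups in voomLmFit (edgeR 4.0.16) with sample weights. Contrasts were moderated with limma 3.58.1, and P values were adjusted over all genes tested by the Benjamini-Hochberg method, with 0.05 as threshold. Log2 CPM used a prior count of 2. Single values were compared by exact two-sided permutation of libraries. Alternatives were limma-trend, the edgeR quasi-likelihood test, DESeq2 1.42.0, other scalings, filters and pool designs, and each library left out.

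The members, the lists of partners and relatives and of marker genes, and the tests were chosen with earlier results of these data known. Genes named beside the members are the partners past the threshold (at most 6 a comparison), Mmrn2 and Lama4 as ligands chosen after their values were seen, the Ly6 relatives, the 5 genes most alike to Pecam1 and to Emcn, and the leading and defining genes of the other cell lists. Mouse pools pair met and non-met libraries of the same animals, per the labels. Across genes, the deviations of such pairs from their group means had a Spearman rho of -0.02 to 0.02.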

Additional observations from a re-analysis of the deposited data

Results flagged for a closer look

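In the 8 sets of 6 non-met values, 1 for each member, chance alone places a library this far from its neighbours in about 1 set in 20. Ly6c1 in non-met 3 (8.66 log2 CPM) stood far above the other 5 non-met libraries, and Clec14a in non-met 5 (0.50 log2 CPM, from 2 reads) stood far below them. Non-met 5 had 168 CPM of Ly6c1, and non-met 3 had 548 CPM of Clec14a, so each library stood apart for 1 of the 2 genes.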

How the results depend on the processing

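Of 648 alternative values for the 24 member differences, 11 changed sign, all of them for differences that had not passed. The 4 calls in met against non-met became 0 with the edgeR quasi-likelihood test, limma-trend, a term for the library sets and the second set alone, 1 with DESeq2, and 2 with RLE scaling, with predicted and ribosomal genes kept and with libraries of 1 pool and group summed. They became 0 with the mouse pool as a fixed replicate block, in voomLmFit and in limma-trend, and 3 with the pool as a random replicate block. With that fixed block Emcn was at -0.044 and Clec14a at -0.22 (-0.033 in limma-trend). Leaving out each library gave 2 to 4 calls, with 2 without non-met 1, 4, 5 or 6 or met 1 or 3. Leaving out the libraries below 2e+06 reads, an alternative chosen after seeing the data, gave 2, and 0 with limma-trend.

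The 6 calls in met against control became 7 without sample weights, 4 with libraries of 1 pool and group summed and with predicted and ribosomal genes kept, 1 with the quasi-likelihood test, 2 with DESeq2 and limma-trend, 1 with limma-trend without the shallow libraries and 0 with the set term, where Clec14a was at 0.87. Leaving out each library gave 0 (without control 1) to 6. The 0 calls in non-met against control became 2 with DESeq2, and 1 with RLE scaling and with 2 groups only, and leaving out each library gave 0 to 1. There Ly6c1 was at -0.011 without sample weights, -0.11 with library size scaling and -0.10 with the set term, and from -0.14 to 0.27 with each library left out. Cd93 was at -0.026 with library size scaling and from -0.10 to 1.54 with each library left out. For the log2 ratio of Emcn to Pecam1, the difference of non-met minus control ran from -0.36 to 0.10, the last without non-met 4. RLE scaling moved the median of all genes by -0.17 in met against non-met, and library size scaling moved it by -0.14 in met against control and -0.21 in non-met against control. Where not shown by the alternative itself, the cause was not tested. A floor of 3 counts was at most 5.43 CPM (non-met 4), and only Clec14a in non-met 5 lay below the floor of its library among the members.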
